A study of Drosophila melanogaster with 35 samples.

Results

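The cytosolic glutathione S-transferases (GSTs) were examined as a gene family in whole adult male Drosophila melanogaster. The family was taken as every gene with a probe set of its own whose current symbol begins with Gst, a class letter and a number. This gave 34 of the 10844 genes represented on the arrays, read by 36 of 13966 probe sets. They comprise 11 delta (GstD), 14 epsilon (GstE), 3 omega (GstO), 1 sigma (GstS), 3 theta (GstT) and 2 zeta (GstZ) genes. GstT1, the other member with such a symbol in the RefSeq gene table, was not analysed here.

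GSTs join the tripeptide glutathione to reactive or foreign molecules, which makes these more soluble and marks them for export. Several members also reduce lipid peroxides and other products of oxidative damage. The delta and epsilon classes are insect-specific and expanded, sit largely in gene clusters, and are best known for insecticide resistance and for induction through the transcription factor CncC, which is held in check by Keap1. The other classes are shared with vertebrates: omega enzymes reduce dehydroascorbate, and zeta enzymes act in the breakdown of tyrosine.

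The data comprise 35 Affymetrix DrosGenome1 arrays, each hybridized with RNA from a separate sample of flies, in 8 groups from an aging study and a stress study. In the aging study, Old flies (n = 4 arrays) were 61 days of age, near 50% survival of the cohort. Hyperoxia flies (n = 6) were kept in 100% oxygen for 5 days from 3 days of age by the sample labels, also to about 50% survival, while the study's methods give an older starting age. Their Young controls (n = 6) were 10 days old. In the stress study, Heat stress flies (n = 3) spent 5.5 hours at 37 degrees C in 1% sucrose vials. Ionizing radiation flies (n = 4) received 5666 rads per hour for 16 hours and then recovered for 2 days on sucrose. Hydrogen peroxide flies (n = 4) were kept for 2 days on sucrose with 3% peroxide. Sugar flies (n = 4) spent 2 days on sucrose alone and so match the vials of the radiation and peroxide flies. The Stress controls (n = 4) were 9 days old, as were the heat-stressed flies, whereas the radiation, peroxide and Sugar flies were 11 days old. All flies, controls included, were male progeny of Oregon-R and a transgenic stock. The study's methods give their genotype as w[1118];rtTA(3)E2/+, so that the rtTA transgene is common to every group. By the study's methods the controls set against the Sugar flies stayed on normal food, whereas the sample labels mention the Stress controls where they describe the sucrose vials.

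Whole flies were used, so a loss of cells of a tissue and less RNA per cell cannot be told apart. The array signals show the labelled sex: the summed signal of 9 testis genes was between 99869 and 225518 on every array, and that of 3 yolk protein genes between 544 and 2282. No 2 arrays held identical values. Some technical features touch the values below. Old replicate 2 had a 3' to 5' actin signal ratio of 283, against 7.44 in Ionizing radiation replicate 1 and 1.48 to 7.09 on the other arrays. The deposited medians of the Sugar arrays were 44.6 to 70.1, against 346 to 445 on all others, before normalization. The signals given here are quantile-normalized intensities, and each log2 fold change was taken after adding 34.1 to them. A gene was called when it passed limma's nested F-test at a false discovery rate of 1% with at least a 1.5-fold change, and the adjusted p-values are those of limma's moderated test within a comparison. Because the F-test controls the rate per gene, a called change can have an adjusted p above 0.01. The term "did not overlap" means that every array of 1 group lay above every array of the other.

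Of the 34 genes, 27 were called in at least 1 of the 6 comparisons with controls, 11 of them only as up-regulated, 12 only as down-regulated and 4 in both directions. The share of all genes called in at least 1 of the 6 was not computed, so the 27 cannot be set against it. GstD6, GstD8, GstE13, GstE14, GstO1, GstT2 and GstT4 were called in none. GstD6 was weakly hybridizing, and after heat (127 to 183) it lay above every Stress control array (14.5 to 83.3) without a call. GstE14, known for its role in ecdysteroid synthesis, averaged between 20.5 and 38.5 in the 8 groups, near the added 34.1, so changes in it could hardly be seen.

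In Old flies 7 of the 34 genes were up-regulated and 2 down-regulated, where 5.48% of all genes tested were called higher and 9.4% lower. In hyperoxia 9 were up-regulated and 5 down-regulated, against 3.44% and 4.79% of all genes. In heat stress 6 rose and 5 fell, with 5.97% and 8.06% of all genes called. In ionizing radiation 6 rose and 6 fell, with 7.8% and 8.23% of all genes called. In hydrogen peroxide 6 rose and 10 fell, with 8.95% and 9.75% of all genes called. In Sugar flies 0 rose and 1 fell by limma's nested F-test, against 2.89% and 2.18% of all genes. Of the genes above the Stress controls in Sugar flies, 3 had an unadjusted p under 0.05 and 0 passed limma's moderated test with a 1.5-fold change. GstZ2 came nearest, at 0.58 (adjusted p = 0.0138). The comparisons within a study share their controls, so they are not independent of each other. The median log2 fold change of the 34 genes lay between -0.10 and 0.21 in these 6 comparisons, while that of all genes lay between 0.00 and 0.05.

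**Figure D1:**
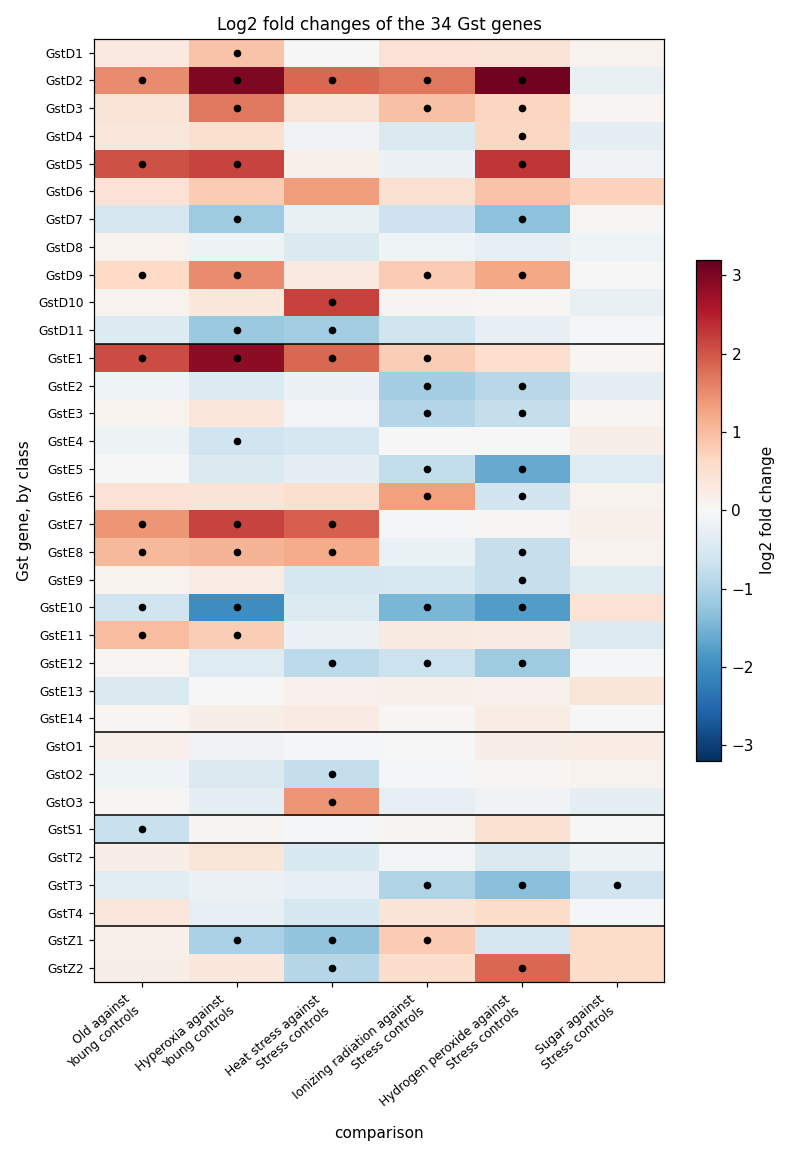
Log2 fold changes of the 34 Gst genes (rows, by class, divided by lines) in the 6 comparisons with controls (columns). Colour gives the log2 fold change and black dots mark called genes. GstD2 was called higher in 5 comparisons, GstE10 lower in 4, and Sugar flies show a single call.

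Some delta genes were called higher in each of the 5 treatments, and 0 in Sugar flies. Of the 11 genes, 3 rose in Old flies and 5 in hyperoxia. Under the acute stresses, 2 rose with heat, 3 with radiation and 5 with peroxide, and 0 were called in Sugar flies by limma's nested F-test (0 at an unadjusted p under 0.05). In hyperoxia 2 members fell, and with heat and with peroxide 1 each. Over the 5 treatments, 3.44% to 8.95% of all genes were called higher and 4.79% to 9.75% lower. The class median was 0.36 for Old flies, 0.80 for hyperoxia, 0.17 for heat stress, 0.09 for ionizing radiation and 0.65 for hydrogen peroxide. For all genes the median lay between 0.00 and 0.05, with 0.03 in ionizing radiation. The members differed in the treatments in which they were called.

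GstD2, an enzyme that conjugates isothiocyanates from plants, was the member called most often. In the aging study its signals were 1997, 2461, 1733 and 1912 on the Old arrays. In hyperoxia the lowest, median and highest were 4836, 5669 and 6549, and in the Young controls 550, 707 and 737. The 3 groups did not overlap, with hyperoxia highest. The log2 fold change was 1.52 ± 0.16 (SE; adjusted p = 1.91e-08, limma) in Old flies and 2.99 ± 0.15 (adjusted p = 4.68e-16) in hyperoxia.

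Under the acute stresses GstD2 had signals of 1175, 1113 and 1501 (heat), 1142, 737, 1102 and 1733 (radiation), and 3615, 2187, 3188 and 3205 in hydrogen peroxide. The Sugar arrays gave 315, 202, 301 and 276 and the Stress controls 296, 296, 368 and 342. Every array of these 3 treatments lay above every Sugar and control array, and the peroxide arrays lay above those of heat and radiation. GstD2 rose by 1.84 ± 0.20 (SE; adjusted p = 1.58e-08, limma) in heat stress, 1.70 ± 0.18 (adjusted p = 8.16e-09) in ionizing radiation and 3.08 ± 0.18 (adjusted p = 1.09e-14) in hydrogen peroxide, 8.46-fold on this scale. In Sugar flies its log2 fold change was -0.24 (adjusted p = 0.477), and against Sugar the value was 3.32 for peroxide and 1.93 for radiation.

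GstD5 separated the treatments sharply. Its signals were 649, 577, 653 and 732 in Old flies, 581, 741 and 810 (lowest, median, highest) in hyperoxia, and 40.9, 176 and 237 in Young controls. Old and hyperoxia arrays overlapped with each other but not with the controls, with log2 fold changes of 2.04 ± 0.25 (SE; adjusted p = 2.31e-07, limma) in Old flies and 2.15 ± 0.23 (adjusted p = 1.19e-08) in hyperoxia. In hydrogen peroxide GstD5 reached 2226, 2161, 1777 and 1591, against 412, 327, 351 and 370 in Stress controls, a log2 fold change of 2.30 ± 0.28 (adjusted p = 8.04e-08). GstD5 was 423, 379 and 447 after heat, 395, 285, 213 and 408 after radiation, and 293, 395, 282 and 395 in Sugar flies, all 3 groups overlapping with the controls.

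GstD9 rose in Old flies, hyperoxia, ionizing radiation and hydrogen peroxide. It measured 2623, 3436, 2627 and 2588 in Old flies and 4869, 5064 and 5755 (lowest, median, highest) in hyperoxia, with 1321, 1666 and 2578 in Young controls. The Old arrays cleared the highest control array by a narrow margin, and the call (log2 fold change 0.64 ± 0.14 SE, adjusted p = 0.00102, limma) was lost without Old replicate 2 or without Young controls replicate 1, with values down to 0.54. In hyperoxia the log2 fold change was 1.51 ± 0.13 (adjusted p = 1.3e-10). Of the stress groups, GstD9 had 2417, 3030, 3160 and 3723 in ionizing radiation and 4570, 3340, 4137 and 4383 in hydrogen peroxide, against 1820, 1707, 1778 and 1599 in Stress controls. Neither treatment overlapped with the controls, and the log2 fold changes were 0.81 (adjusted p = 0.000176) for radiation and 1.23 (adjusted p = 2.26e-07) for peroxide. Heat-stressed flies, with 1716, 2127 and 2671, overlapped with the controls and were not called.

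GstD3 rose in hyperoxia, ionizing radiation and hydrogen peroxide but was not called in Old flies or heat stress. Its signals in hyperoxia were 3296, 3895 and 4496 (lowest, median, highest), against 1025, 1217 and 1292 in Young controls, a log2 fold change of 1.70 ± 0.11 (SE; adjusted p = 2.12e-13, limma). Old arrays, at 1648, 1821, 1436 and 1450, also lay above all the controls, but the log2 fold change of 0.41 was under the 1.5-fold threshold. Among stressed flies it was 1097, 1873, 1699 and 1839 in ionizing radiation and 1370, 1478, 1384 and 1142 in hydrogen peroxide, against 853, 763, 827 and 830 in Stress controls. All arrays of both treatments exceeded the controls, with log2 fold changes of 0.93 for radiation and 0.69 for peroxide. The heat arrays, at 905 to 1244, also lay above all these controls without a call.

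GstD1, an enzyme that breaks down DDT and whose promoter drives a common reporter of CncC activity, changed less. Its signals were 34668, 27768, 34042 and 33700 in Old flies and 46630, 48906 and 53407 (lowest, median, highest) in hyperoxia, against 24879, 25949 and 26942 in Young controls. Neither group overlapped with the controls. The rise passed the threshold in hyperoxia (0.92 ± 0.06 SE, adjusted p = 7.11e-13, limma), while the log2 fold change in Old flies was 0.32 (adjusted p = 0.000667). In ionizing radiation GstD1 had 32397, 35399, 35815 and 38462 and in hydrogen peroxide 35028, 33499, 35399 and 33499, with 26555, 26287, 25656 and 25202 in Stress controls. The differences of 0.45 (adjusted p = 2.66e-05) for radiation and 0.41 (adjusted p = 0.000101) for peroxide were larger than the spread between arrays but under 1.5-fold. Heat stress (25974, 24988 and 25785) and Sugar flies (26942, 28916, 27936 and 28114) were not called. With the arrays scaled to a common median instead, the peroxide value was 0.67 and was called.

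GstD10 was called in heat stress alone among the 6 comparisons. It had 815, 757 and 1018 in heat stress, against 158, 129, 193 and 173 in Stress controls, and the log2 fold change was 2.18 ± 0.19 (SE; adjusted p = 2.84e-10, limma). The log2 fold change was between -0.23 and 0.34 in the other 5 comparisons. The lesser calls in the class were GstD4, at 0.65 in hydrogen peroxide, and falls of the weakly hybridizing GstD7 (-1.14 in hyperoxia and -1.30 in hydrogen peroxide) and GstD11 (-1.19 in hyperoxia and -1.12 in heat stress). The GstD4 call was lost without Stress controls replicate 2 or Hydrogen peroxide replicate 1, and the GstD11 call in heat stress was lost when any of 5 arrays was left out: Stress controls replicate 1, 2 or 4, or Heat stress replicate 1 or 3.

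**Figure D2:**
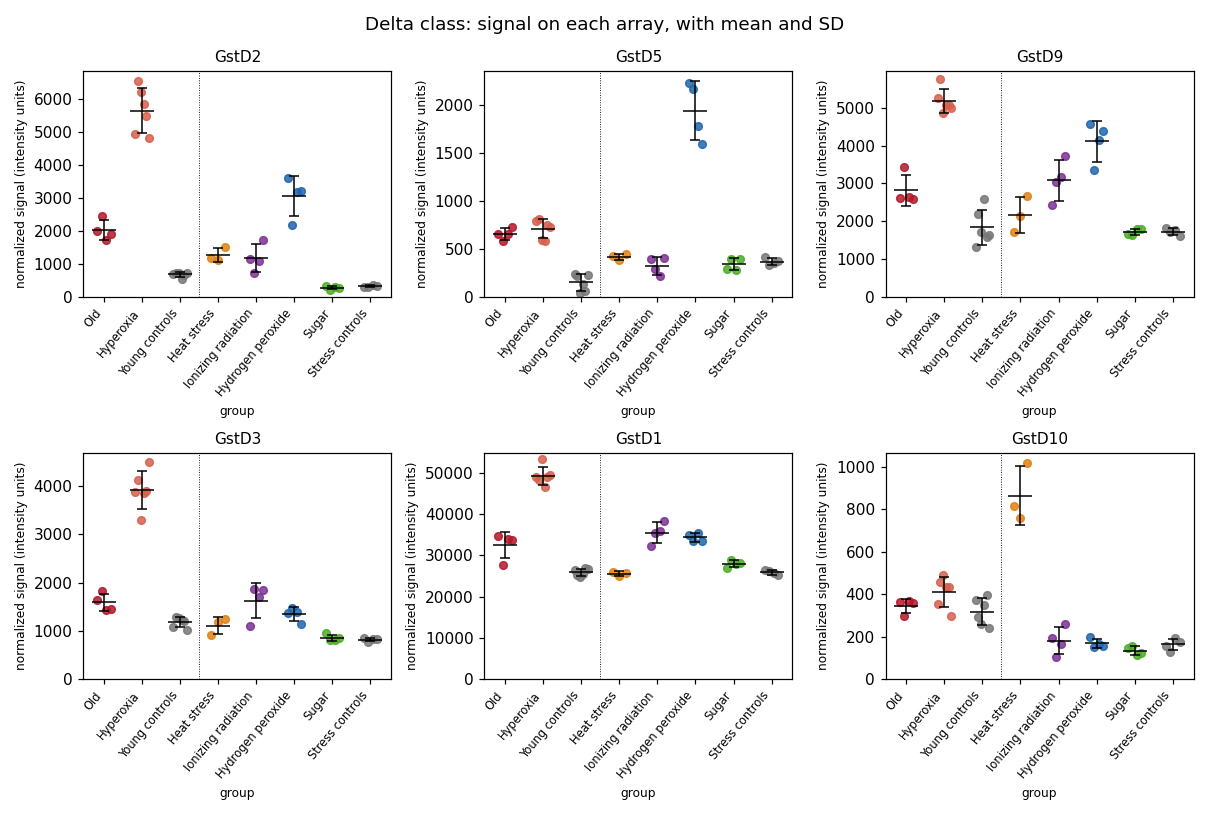
Normalized signal (intensity units, vertical axis from 0) of 6 delta genes on every array, in 8 groups along the horizontal axis with the aging study left of the dotted line. Points are arrays, horizontal marks are means and bars are SD. GstD2 stands highest in hyperoxia (mean 5649) and GstD5 in hydrogen peroxide (mean 1939), whereas GstD10 stands highest in heat stress (mean 864).

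The epsilon class split by treatment. Of its 14 genes, 4 rose and 1 fell in Old flies, 4 rose and 2 fell in hyperoxia, and 3 rose and 1 fell in heat stress. In ionizing radiation 2 rose and 5 fell, and in hydrogen peroxide 8 fell and 0 rose by limma's nested F-test (1 rise, that of GstE1, at an unadjusted p under 0.05, and 0 by the moderated test). The class median was -0.68 in hydrogen peroxide, where the median of all genes was 0.05. It was 0.09 in Old flies, 0.21 in hyperoxia, -0.13 in heat stress and -0.14 in ionizing radiation. Over these 5 treatments, 3.44% to 8.95% of all genes were called higher and 4.79% to 9.75% lower.

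GstE1 led the class in the aging study. Its signals were 9357, 9751, 9546 and 9193 in Old flies and 14220, 15637 and 20758 (lowest, median, highest) in hyperoxia, against 1890, 2165 and 2570 in Young controls. The 3 groups did not overlap. The log2 fold changes were 2.08 ± 0.12 (SE; adjusted p = 7.82e-14, limma) in Old flies and 2.86 ± 0.11 (adjusted p = 1.5e-18) in hyperoxia.

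GstE1 had 6277, 8435 and 7977 after heat, 4784, 3163, 3144 and 3480 after radiation and 3128, 2570, 2755 and 3586 in hydrogen peroxide. It had 2235, 2015, 2194 and 2221 in Sugar flies and 2216, 2012, 2220 and 1829 in Stress controls. All 3 stressed groups lay above the controls, heat furthest. The log2 fold change was 1.85 ± 0.15 (SE; adjusted p = 3.23e-11, limma) in heat stress and 0.79 ± 0.13 (adjusted p = 2.95e-05) in ionizing radiation. In hydrogen peroxide it was 0.53 (adjusted p = 0.00298), under the 1.5-fold threshold.

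GstE7 and GstE8, neighbours in the epsilon cluster, rose in the same 3 treatments, namely aging, hyperoxia and heat stress. GstE7 had 1300, 2159, 974 and 937 in Old flies and 1639, 2265 and 2389 (lowest, median, highest) in hyperoxia, against 410, 437 and 578 in Young controls. All Old and hyperoxia arrays exceeded the controls, and the spread among the Old arrays was wide. The highest of them, 2159, was Old replicate 2, the array with the high actin ratio. The log2 fold changes were 1.40 ± 0.17 (SE; adjusted p = 1.6e-07, limma) in Old flies and 2.17 ± 0.15 (adjusted p = 1.94e-12) in hyperoxia. In heat stress GstE7 had 2068, 2690 and 2501, against 606, 578, 708 and 553 in Stress controls, a log2 fold change of 1.92 ± 0.20 (adjusted p = 1.35e-08). GstE7 was not called in hydrogen peroxide, where the arrays gave 618, 567, 613 and 693 and overlapped with the controls.

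GstE8 had 1988, 2674, 1696 and 1729 in Old flies and 1887, 1998 and 2361 (lowest, median, highest) in hyperoxia, against 803, 988 and 1068 in Young controls. These are log2 fold changes of 1.03 (adjusted p = 1.42e-07, limma) in Old flies and 1.09 (adjusted p = 6.4e-09) in hyperoxia, with no overlap with the controls. Stressed flies went both ways, with 1678, 1987 and 1922 in heat stress and 470, 463, 452 and 443 in hydrogen peroxide, against 897, 718, 914 and 664 in Stress controls. Both groups lay clear of the controls, and GstE8 was called higher in heat stress (1.20, adjusted p = 2.69e-07) and lower in hydrogen peroxide (-0.75, adjusted p = 6.43e-05). Over all 35 arrays the deviations of GstE7 and GstE8 from their group means correlated at r = 0.69, the highest value among pairs of Gst genes. This is a description: the pair shares arrays and lies side by side, and cross-hybridization between such related sequences was not tested. Old replicate 2, with the high actin ratio, was the highest Old array for both genes, and its part in the correlation was not tested.

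GstE6 had the largest rise of the epsilon genes in ionizing radiation. Its signals were 8751, 6360, 6613 and 7079 in ionizing radiation and 2055, 1624, 1806 and 1923 in hydrogen peroxide, against 2796, 2972, 2825 and 2843 in Stress controls. Radiation arrays lay above and peroxide arrays below every control. The log2 fold change was 1.31 ± 0.11 (SE; adjusted p = 2.37e-11, limma) in ionizing radiation and -0.62 ± 0.11 (adjusted p = 2.31e-05) in hydrogen peroxide. The fall in peroxide, close to the 1.5-fold threshold, was not called without Hydrogen peroxide replicate 2 (-0.56).

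GstE10 fell in Old flies, hyperoxia, ionizing radiation and hydrogen peroxide. It had 531, 380, 776 and 559 in Old flies and 144, 209 and 240 (lowest, median, highest) in hyperoxia, against 792, 872 and 926 in Young controls. The hyperoxia arrays lay far below the controls, at -1.99 ± 0.18 (SE; adjusted p = 3.92e-10, limma). The Old arrays lay below the controls too, but their call, at -0.64 (adjusted p = 0.0171), was lost without Old replicate 2 (-0.48). In the stress study GstE10 had 159, 206, 198 and 159 in ionizing radiation and 165, 75.8, 218 and 125 in hydrogen peroxide, with 792, 796, 522 and 1119 in Sugar flies and 749, 587, 554 and 389 in Stress controls. Both treatments lay below every Sugar and control array, with log2 fold changes of -1.47 (adjusted p = 3.66e-06) for radiation and -1.78 (adjusted p = 1e-07) for peroxide against Stress controls.

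Other epsilon genes were called lower in the stress study and not in the aging study, a difference that was not itself tested. Without a call, GstE5 in hyperoxia, at 716 to 758, lay below all Young controls (936 to 1101). GstE12 averaged 8921 in hyperoxia and 11856 in Young controls, with overlapping arrays. GstE3 in hyperoxia, at 7996 to 9579, lay above all Young controls (6172 to 7289). GstE12 had 4443, 5102 and 3872 after heat, 5868, 5068, 4462 and 4324 after radiation and 3801, 3148, 3736 and 3688 in hydrogen peroxide, against 7826, 8435, 6740 and 8808 in Stress controls. All 3 groups lay below the controls, with log2 fold changes of -0.83 for heat, -0.69 for radiation and -1.14 for peroxide, the last with an adjusted p of 3.03e-09 (limma). GstE5 had 490, 198, 306 and 341 in hydrogen peroxide, against 1038, 1075, 976 and 1102 in Stress controls, a log2 fold change of -1.61 (adjusted p = 9.71e-11), and it fell by 0.78 in ionizing radiation. GstE3 fell by 0.93 in ionizing radiation and by 0.76 in hydrogen peroxide, without overlap with the controls. GstE2 fell by 1.10 in radiation and 0.88 in peroxide, but its call in peroxide was lost in 7 of the 8 fits that each left out 1 array (all but the fit without Hydrogen peroxide replicate 4). The radiation call of GstE2 was lost without Ionizing radiation replicate 1, at -0.78.

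Of the comparisons with controls, GstE9 was called only in hydrogen peroxide (log2 fold change -0.74, adjusted p = 1.04e-06, limma). It had 4251, 3457, 3672 and 4736 there, against 7274, 6480, 6589 and 6549 in Stress controls. Without a call, heat stress (4306 to 4952), ionizing radiation (4317 to 5411) and Sugar flies (4939 to 5411) also lay below every Stress control array. The peroxide arrays lay below every Sugar array but overlapped with those of heat and radiation. GstE11 rose in Old flies by 0.98 and in hyperoxia by 0.78, with all arrays above the Young controls. GstE4 was called lower in hyperoxia, at -0.63, but its arrays overlapped with the controls and the call was lost without Hyperoxia replicate 2 (-0.51).

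**Figure D3:**
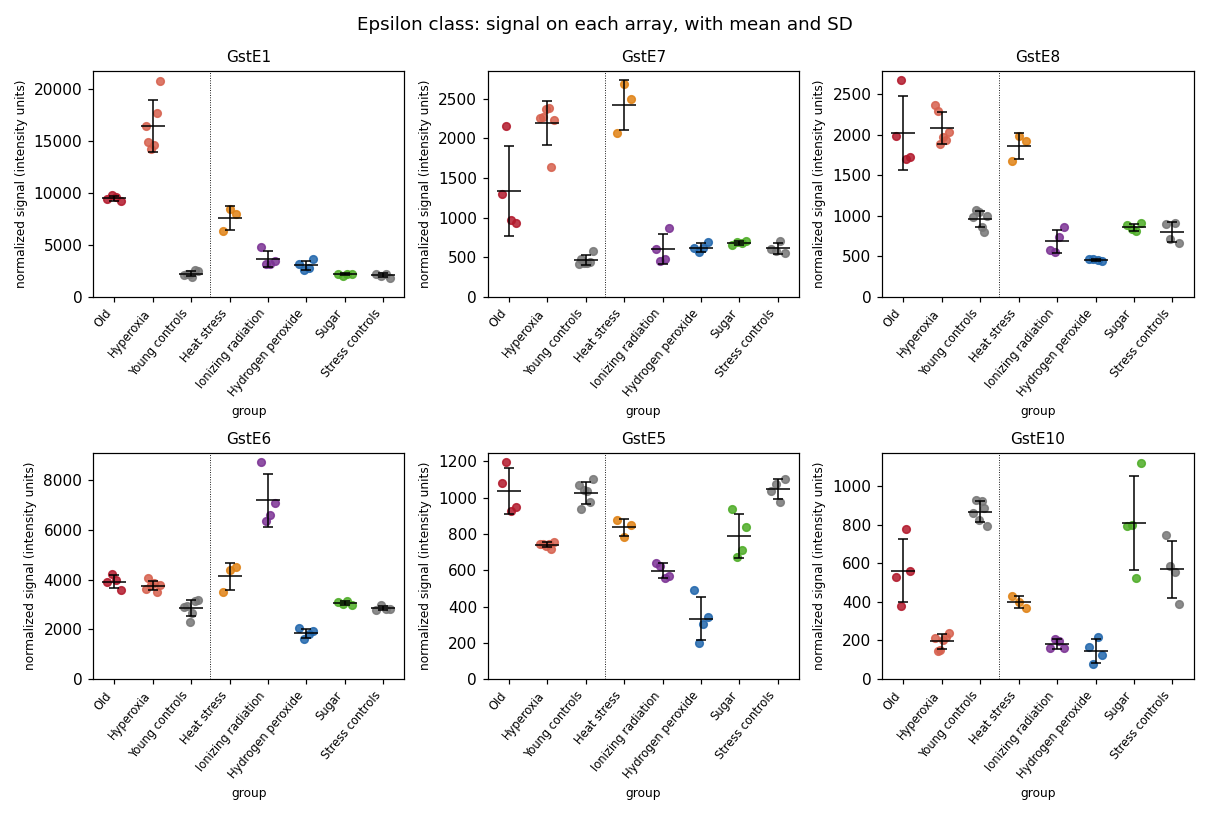
Normalized signal (intensity units, vertical axis from 0) of 6 epsilon genes on every array, in 8 groups along the horizontal axis with the aging study left of the dotted line. Points are arrays, horizontal marks are means and bars are SD. GstE7 is high in Old, Hyperoxia and Heat stress, GstE6 is highest in Ionizing radiation (mean 7201), and GstE10 is low in Hyperoxia, Ionizing radiation and Hydrogen peroxide (means 195, 181 and 146).

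Most delta and epsilon genes lie side by side in 2 clusters, in the gene order of the RefSeq table (Release 6 of the genome). The delta cluster runs GstD10, GstD9, GstD1, GstD2 to GstD8 and GstD11, with 1 other gene before GstD2 and 1 before GstD11. Neighbours in it had unequal values: in hydrogen peroxide GstD2 rose by 3.08, GstD3 by 0.69, GstD4 by 0.65 and GstD5 by 2.30, while GstD7 fell by 1.30. The epsilon cluster runs GstE10, GstE1, GstE2, GstE3, then GstE4 to GstE9 after 2 other genes. At its near end GstE10 fell by 1.99 in hyperoxia and its neighbour GstE1 rose by 2.86. In the run from GstE5 to GstE8, hydrogen peroxide gave falls of GstE5, GstE6 and GstE8, while GstE7 was at 0.03. GstE11 lies 12 genes beyond the cluster, and GstE12, GstE13 and GstE14 lie elsewhere on the same chromosome arm.

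**Figure D4:**
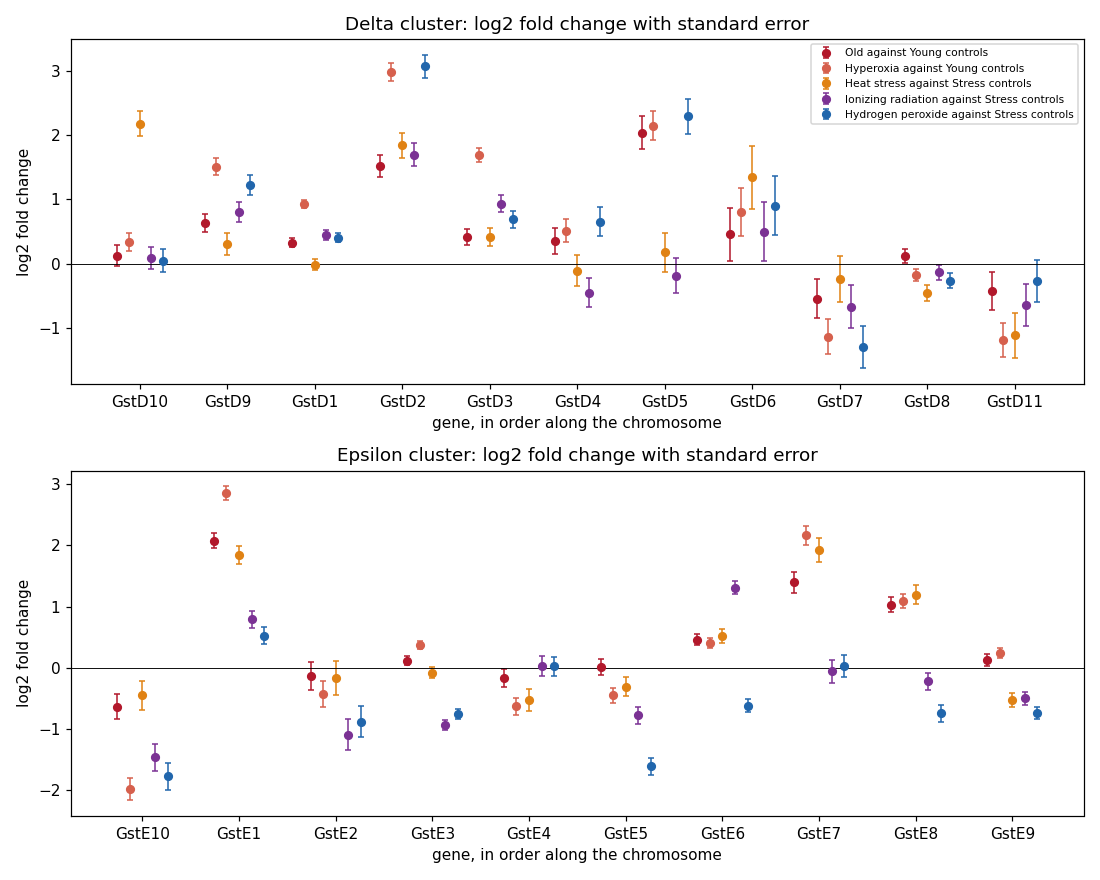
Log2 fold change (vertical axis) of the genes of the delta and epsilon clusters, in their order along the chromosome (horizontal axis), in 5 comparisons with controls. Points are the fitted values and bars their standard errors. GstE1 and GstE10, side by side, lie at 2.86 and -1.99 in hyperoxia.

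The zeta genes GstZ1 and GstZ2 are adjacent in the genome and related to maleylacetoacetate isomerase, an enzyme of tyrosine breakdown. In hydrogen peroxide GstZ2 rose against Stress controls, where GstZ1 was not called. GstZ2 had 1358, 1490, 1904 and 1778 in hydrogen peroxide, with 784, 713, 645 and 537 in Sugar flies and 329, 565, 380 and 486 in Stress controls. The peroxide arrays lay above all Sugar and control arrays, and the log2 fold change was 1.83 ± 0.15 (SE; adjusted p = 4e-11, limma) against Stress controls. In heat stress GstZ2 had 221, 194 and 226, below every control, with a log2 fold change of -0.91 (adjusted p = 0.000129).

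GstZ1 had 174, 154, 344 and 354 in hydrogen peroxide, against 201, 312, 446 and 630 in Stress controls, which overlapped and were not called (-0.55). Heat gave 236, 166 and 53.6 and radiation 907, 613, 587 and 610. These passed the nested F-test as a fall of 1.26 after heat (adjusted p = 0.0281, limma) and a rise of 0.81 after radiation (adjusted p = 0.139), but both groups overlapped with the controls. The radiation call was lost without Stress controls replicate 1 or Ionizing radiation replicate 1. In Sugar flies GstZ1 ranged from 416 to 795, overlapping with both the radiation arrays and the controls. Neither zeta gene was called in ionizing radiation against Sugar flies, where the higher of their log2 fold changes was 0.22. The peroxide arrays of GstZ1 lay below every Sugar and every radiation array, with log2 fold changes of -1.13 and -1.35. Neither was called at an adjusted p under 0.01 by limma's moderated test, though both passed it at 0.05. In hyperoxia GstZ1 had 115, 630 and 768 (lowest, median, highest), against 907, 1082 and 1145 in Young controls, a log2 fold change of -1.03 (adjusted p = 0.0211) without overlap.

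Of the 3 theta genes only GstT3 was called against controls. It had 1249, 1387, 1208 and 1079 in ionizing radiation, 1197, 490, 1104 and 1132 in hydrogen peroxide and 1676, 1459, 1669 and 1409 in Sugar flies, against 2586, 2158, 2356 and 2586 in Stress controls. All 3 groups lay below the controls, with log2 fold changes of -0.96 for radiation, -1.35 for peroxide and -0.63 for Sugar. The Sugar value (adjusted p = 0.0126, limma) was the family's only call there, and it was lost in 4 of the 8 fits that each left out 1 array: Stress controls replicate 1 or 4, or Sugar replicate 2 or 4. It was also lost when replicate number was fitted as a block. GstT4 was not called here, although in hydrogen peroxide it had 4069, 4357, 4998 and 5967, all above the Stress controls at 3070, 3055, 3293 and 3355 (log2 fold change 0.58). The radiation arrays of GstT4 (3727 to 4662) also lay above these controls, and its heat arrays (2119 to 2246) below them. Without a call, GstT2 lay below every Stress control (479 to 533) in heat stress (307 to 383) and hydrogen peroxide (312 to 399).

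The sigma enzyme GstS1, abundant in indirect flight muscle and able to conjugate a toxic product of lipid peroxidation, was lower in Old flies. It had 7593, 5588, 7361 and 7977, against a lowest of 8601, a median of 12113 and a highest of 12697 in Young controls, a log2 fold change of -0.70 ± 0.12 (SE; adjusted p = 5.5e-05, limma). In hyperoxia GstS1 had 10545, 12294 and 14036 (lowest, median, highest) and overlapped with the controls.

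The omega genes GstO1, GstO2 and GstO3 form a cluster with sepia (se), another omega enzyme, which makes a precursor of the red eye pigments. GstO3 rose in heat stress to 7466, 8898 and 9724, against 3253, 3303, 3426 and 2933 in Stress controls, a log2 fold change of 1.41 ± 0.10 (SE; adjusted p = 2.54e-12, limma). GstO2 had 1723, 1614 and 1254 there, below the controls at 2899, 2139, 3192 and 2359, with a log2 fold change of -0.77 (adjusted p = 1.01e-05). GstO2 is read by 3 probe sets, of which these values are the brightest. A dimmer probe set, averaging 252 in heat stress and 548 in Stress controls, was also called lower (-1.04, adjusted p = 1.87e-06). The dimmest averaged 218 in heat stress and 185 in Stress controls and was not called (0.27), though it was called higher in Sugar flies (1.29). With the mean of all 3 the fall in heat stress was 0.52 and was not called. Sepia, which the rule on symbols leaves out, was called higher in heat stress (0.94) and lower in hyperoxia (-1.19) and ionizing radiation (-0.87).

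**Figure D5:**
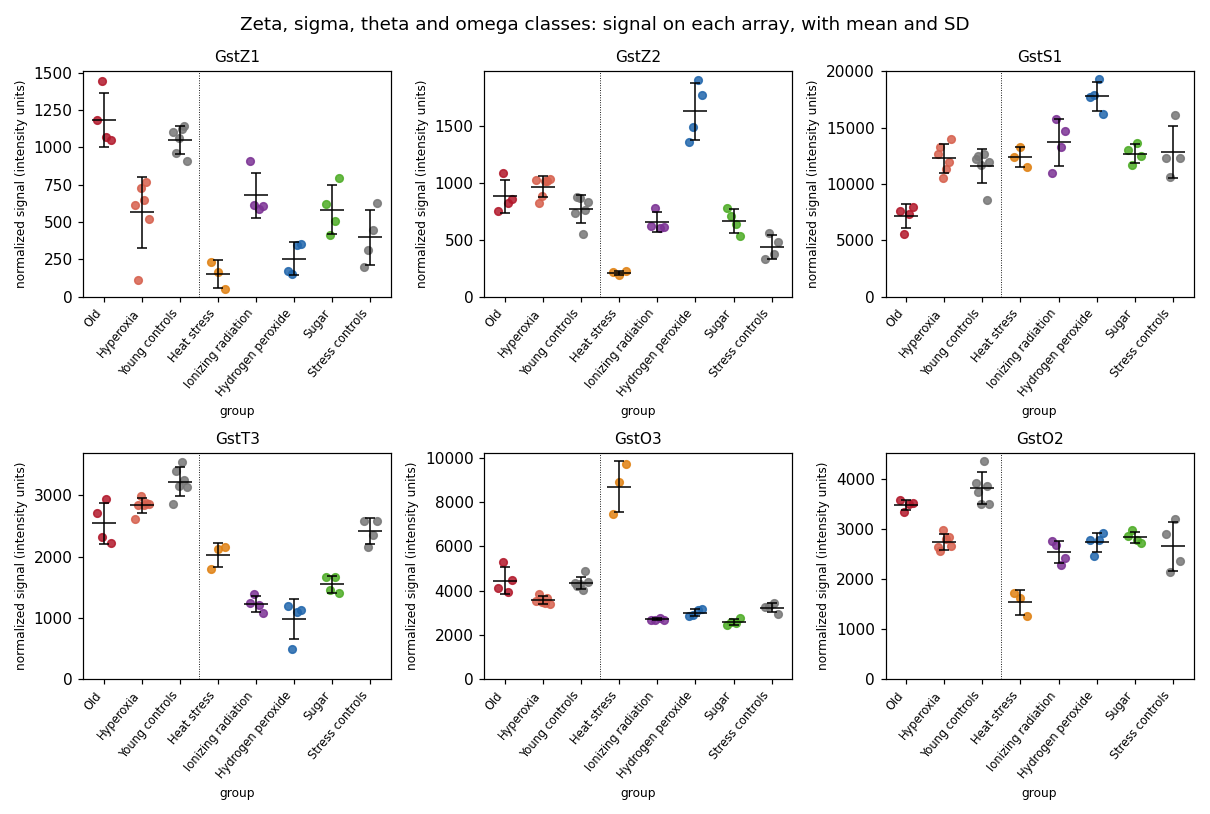
Normalized signal (intensity units, vertical axis from 0) of 6 zeta, sigma, theta and omega genes on every array, in 8 groups along the horizontal axis with the aging study left of the dotted line. Points are arrays, horizontal marks are means and bars are SD. GstZ2 is highest in Hydrogen peroxide (mean 1633), GstO3 in Heat stress (mean 8696), and GstS1 is lowest in Old (mean 7130).

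Direct contrasts between treatments were called at an adjusted p under 0.01 by limma's moderated test with at least a 1.5-fold change. Hydrogen peroxide against ionizing radiation asked where these treatments, which share sucrose vials and a 2-day interval, differed. In peroxide 4 of the 34 genes were higher and 2 lower, with 4.97% and 4.9% of all genes called. GstD5 was higher by 2.48, GstD2 by 1.38, GstZ2 by 1.26 and GstD4 by 1.10 on the log2 scale. GstE6 was lower by a log2 fold change of -1.93 (adjusted p = 1.31e-14) and GstE5 by -0.84.

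Heat stress against hydrogen peroxide gave 10 genes higher and 6 lower, with 7.33% and 9.08% of all genes called. Among the 14 epsilon genes 7 were higher in heat stress and 0 lower by limma's test (2 lower at an unadjusted p under 0.05, GstE4 and GstE11), and the class median was 0.69. GstE8 differed most within the class (1.95, adjusted p = 5.59e-12, limma), followed by GstE7 (1.90). GstD10 (2.14) and GstO3 (1.52) were also higher in heat stress, whereas GstZ2 (-2.74), GstD5 (-2.12) and GstD2 (-1.24) were lower. Heat lasted 5.5 hours and peroxide 2 days, so treatment and duration cannot be told apart.

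Old flies against hyperoxia flies gave 2 genes higher and 7 lower, with 5.36% and 9.39% of all genes called. GstD2 (-1.47), GstD3 (-1.29), GstD9 (-0.88), GstE1 (-0.78), GstE7 (-0.77) and GstD1 (-0.60) were lower in Old flies, as was GstS1 (-0.79). GstE7 overlapped between the groups, and the GstD1 call was lost without Hyperoxia replicate 3 or Old replicate 2 and with the arrays scaled to a common median (-0.31). GstE10 was higher in Old flies by 1.35, and GstT4 by 0.61 with overlapping arrays. The GstT4 call was lost without Hyperoxia replicate 1 or Old replicate 3 or 4. GstD5 did not pass this test, with a log2 fold change of -0.11.

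Against Sugar flies in place of Stress controls, ionizing radiation had 6 genes higher and 3 lower, with 6.27% and 8.19% of all genes called. GstD2 (1.93), GstE6 (1.21), GstD3 (0.87), GstD9 (0.82), GstE11 (0.75) and GstE1 (0.72) were higher, and GstE10 (-1.93), GstE12 (-0.65) and GstE3 (1.99-fold) lower. The GstE1 call was lost without Ionizing radiation replicate 1 (0.58). GstE11 was lower in the Sugar flies themselves, at 383 to 530 against 543 to 759 in Stress controls (-0.45, not called). Its mean was 788 in radiation and 782 in peroxide, against 633 in Stress controls, and neither was called against those controls. Hydrogen peroxide against Sugar had 8 higher and 8 lower, with 6.49% and 9.11% of all genes called. GstD2 (3.32), GstD5 (2.40), GstZ2 (1.24) and GstD9 (1.24) led the higher genes and GstE10 (-2.24), GstD7 (-1.35), GstE5 (-1.21) and GstE12 (-1.09) the lower. The calls of GstD3, GstD4, GstD7, GstE11, GstT3 and GstT4 in this contrast were each lost without 1 array. These were Hydrogen peroxide replicate 2 (GstD3 and GstT3) or 4 (GstD7, GstE11 and GstT4), and Sugar replicate 3 (GstD7) or 4 (GstD4 and GstE11). GstT3 was then at -0.43.

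Genes that supply or regulate the pathway were read from lists drawn up by function. The lists are short, and their counts stand beside 3.44% to 8.95% of all genes called higher and 4.79% to 9.75% lower in the 5 treatments. Of 5 matched genes of glutathione synthesis and turnover, 2 rose in Old flies and in hyperoxia, 1 fell in heat stress, 2 rose and 2 fell in ionizing radiation, and 1 rose and 1 fell in hydrogen peroxide. The list median was 0.43 for Old flies, 0.23 for hyperoxia, -0.10 for heat stress, 0.05 for ionizing radiation and 0.52 for hydrogen peroxide. Ahcy, which frees homocysteine for the synthesis of cysteine, was called higher in Old flies (0.95), hyperoxia (1.05), ionizing radiation (1.39) and hydrogen peroxide (1.33), and lower in heat stress (-0.75). Gclm, the modifier subunit of the enzyme that starts glutathione synthesis, fell by 0.85 in ionizing radiation. Its catalytic partner Gclc was not called.

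Of 11 other enzymes that use glutathione or act in the thioredoxin system that reduces it in flies, 0 were called in Old flies or Sugar flies by limma's nested F-test (4 in each at an unadjusted p under 0.05). In hydrogen peroxide 2 rose and 3 fell, in ionizing radiation and in heat stress 2 rose and 2 fell, and in hyperoxia 1 rose and 1 fell. The list median lay between -0.26 in hydrogen peroxide and 0.15 in Old flies. Mgstl, the microsomal GST, fell by 1.72 in hydrogen peroxide, 0.74 in heat stress and 0.70 in ionizing radiation. Trxr1, thioredoxin reductase, rose by 0.90 after heat, 0.92 after radiation and 0.74 in peroxide.

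Of 6 genes of the CncC and Keap1 group, 0 were called in Old flies, hyperoxia or Sugar flies by limma's nested F-test (4, 1 and 2 at an unadjusted p under 0.05). The cnc gene lay between -0.25 and 0.31 in all 6 comparisons. In heat stress 1 rose and 0 fell, in ionizing radiation 0 rose and 1 fell, and in hydrogen peroxide 1 rose and 1 fell. Keap1, which holds CncC in check, rose by 2.19 in heat stress, and maf-S, a partner of CncC, by 0.93 in hydrogen peroxide. The falls were both of dj-1beta, a fly homologue of the Parkinson disease gene DJ-1, at -0.67 for radiation and -0.76 for peroxide. Against Sugar flies, 0 of these 6 genes were called in hydrogen peroxide or in ionizing radiation by limma's moderated test (3 and 0 at an unadjusted p under 0.05). The calls of maf-S and dj-1beta are thus against Stress controls only. The list median lay between -0.24 in Old flies and 0.37 in heat stress. Of 7 genes of the JNK and FoxO group, which includes Hsf, 3 rose in Old flies, 5 in heat stress and 2 each in hyperoxia, ionizing radiation and hydrogen peroxide, with no fall. Its median was 0.45 in Old flies, 0.74 in heat stress, 0.29 for hyperoxia, 0.46 for ionizing radiation, 0.29 for hydrogen peroxide and 0.34 for Sugar flies. Jra, the fly Jun, and puc, a phosphatase that JNK signaling induces, were called higher against controls in all 5 treatments, most in hydrogen peroxide (Jra 1.58, puc 1.81). Against Sugar flies, 3 of the 7 genes were called higher in hydrogen peroxide and 0 in ionizing radiation by limma's moderated test (4 in each at an unadjusted p under 0.05). Sugar flies had 0 calls against Stress controls, with 5 of the 7 at an unadjusted p under 0.05. Of 4 transporters that can export conjugates, MRP rose in heat stress (1.04) and in Sugar flies (0.64). Mdr49 fell in heat stress (-0.96), and Mdr49 (-0.69) and Mdr65 (-0.81) fell in hydrogen peroxide. The list median was -0.46 in heat stress, -0.60 in hydrogen peroxide and between -0.05 and 0.31 in the other comparisons.

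Markers of several tissues also moved with the groups. The summed signal of 8 midgut genes was 30898 to 49883 in hydrogen peroxide, 86695 to 95992 in ionizing radiation, 58640 to 68993 in heat stress and 108877 to 115047 in Sugar flies, against 137221 to 164102 in Stress controls. Of these 8 genes, 7 fell and 1 rose in hydrogen peroxide, with a median of -3.22, and 6 fell in ionizing radiation. In the aging study the midgut sum was 95262 to 122920 in Old flies and 103156 to 126674 in hyperoxia, against 156571 to 179970 in Young controls. The 4 fat body genes summed to 3559 to 5522 in hydrogen peroxide and 8663 to 10846 in ionizing radiation, against 19779 to 23083 in Stress controls, and to 8676 to 10401 in hyperoxia, against 22769 to 29960 in Young controls. Of these 4 genes, 2 fell and 0 rose in each of these 3 treatments. Sugar flies had sums of 15109 to 17600. Against them 1 gene rose and 1 fell both in peroxide (median -0.05) and in radiation (median -0.06). The 4 Malpighian tubule genes summed to 2115 to 2962 in hydrogen peroxide and 1811 to 2802 in ionizing radiation, against 3755 to 4564 in Stress controls. In Sugar flies their sums were higher than in the controls, at 6482 to 8530. Of the 11 accessory gland genes, 9 fell and 1 rose both in hydrogen peroxide and in ionizing radiation. Their sums were 37378 to 47146 in hydrogen peroxide and 40855 to 43856 in ionizing radiation, against 96212 to 105050 in Stress controls. Sugar flies, with 5 of these genes lower and 0 higher, had sums of 76914 to 88012. In Old flies 8 of 9 testis genes fell, with sums of 99869 to 119301, against 171502 to 192279 in Young controls. Every listed tissue gene reached the added 34.1 on some array of each group, except 1 fat body gene in Heat stress, Young controls and Stress controls. The part of these tissue changes in the falls of GstE10, GstE5, GstE12, GstT3 and the other epsilon genes, and in the changes in Old flies, was not tested.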

How the data were processed

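The authors scanned 35 DrosGenome1 arrays, and per the submitters' processing notes they used MAS5 (no version stated there). The deposited values are linear signal intensities of 14010 probe sets in 1 table for all arrays. From the values, 31 arrays had been scaled to a trimmed mean of 1000 and the Sugar arrays to 107 to 167. The study's own statistics came from another model of the probe signals.

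Here 44 control probe sets were left out, the intensities were quantile normalized on the log2 scale, 34.1 (the 10th percentile of normalized values) was added and log2 was taken. Changes of genes near or below this value are pulled toward 0. Of 13966 probe sets, 12443 match a single gene, 327 several and 1196 none in the platform table, and 12394 symbols were updated through the RefSeq table (49 were not). Each gene was read from its brightest probe set on average. Limma 3.58.1 in R 4.3.3 fitted 8 group means (27 residual degrees of freedom, 30.2 after moderation). Calls of the 6 comparisons with controls rested on the nested F-test (FDR 1%) and 1.5-fold, those of the 5 direct contrasts the moderated test at an adjusted p under 0.01 and 1.5-fold, with Benjamini-Hochberg adjustment over all probe sets. Probe sets of closely related Gst genes may cross-hybridize; probe and promoter sequences were not analysed here.

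Replicate numbers did not pair the samples: over 13 pairs of groups the residuals of equal-numbered arrays correlated between -0.0909 and 0.0748. The few arrays per group limit the precision. Per-array values are given for genes called the same way in at least 3 comparisons, the largest called change per comparison and direction, the member with the highest mean signal of each class, GstD1 and GstD2. Other called members are given by their changes; the array values of GstE5, GstE6 and GstO2 fall outside this rule and were added once their values had been seen. The lists covered glutathione synthesis and turnover, other glutathione-using enzymes, the CncC and Keap1 group, the JNK and FoxO group, conjugate export, and tissue genes of testis, accessory gland, females, fat body, midgut and Malpighian tubule. The members, lists and tests were chosen with earlier results of these data known. The fit was tested on simulated data. Alternatives covered the scaling, pseudocount, thresholds, dim probe sets, several probe sets per gene, the samples fitted, array weights, a replicate block and leaving out arrays.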

Additional observations from a re-analysis of the deposited data

Results flagged for a closer look

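In groups of 4 to 6 arrays, the lowest or the highest array of a gene was set against the others by Dixon's ratio at the 95% level. Of 238 gene and group sets 21 stood out, where about 1 in 20, or 11.9, would by chance. Old replicate 2, the array with the high actin ratio, accounted for 4 of them: GstD1 was low at 27768, GstD10 low at 297, GstD9 high at 3436 and GstE12 high at 13806.

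Hydrogen peroxide replicate 2 was low for GstD8 (382), GstE12 (3148) and GstT3 (490). Without it GstT3 was at -0.43 against Sugar and was not called. In ionizing radiation GstZ1 was high in replicate 1 (907) and GstZ2 in replicate 2 (786).

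In hyperoxia, GstZ1 was low in replicate 2 (115), GstE7 low in replicate 5 (1639), GstD6 low in replicate 3 (20.9) and GstT3 low in replicate 1 (2615). Hyperoxia replicate 6 was high for GstD11 (81.2) and GstE12 (11293).

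In Sugar flies GstD8 (485) and GstE4 (674) were low in replicate 4 and GstE3 (4547) in replicate 3. In Stress controls GstE3 was high in replicate 3 (4869) and GstE9 in replicate 1 (7274). In Young controls GstS1 was low in replicate 5 (8601).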

How the results depend on the processing

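Of the 119 calls of a Gst gene in the 11 comparisons, 114 were kept with median scaling, 117 with normalization within each study, 116 and 117 with the added value at the 25th and 1st percentile, 119 without dim probe sets (which removed GstD6 and GstE14), 117 with the mean of a gene's probe sets, 117 with array weights, 94 when only the 2 groups compared were fitted and 69 at a 2-fold threshold. No call changed direction. Of 63 calls against controls, 62 passed the moderated test at an adjusted p of 0.05; GstZ1 in ionizing radiation did not. Without Old replicate 2 and Ionizing radiation replicate 1, 39 of 45 calls were kept.

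The counts moved as follows. At 2-fold, genes lower in Old flies numbered 0 in place of 2, lower in heat stress 2 in place of 5, higher and lower in ionizing radiation 2 and 2 in place of 6 and 6, lower in hydrogen peroxide 5 in place of 10, and lower in Sugar flies 0 in place of 1. In direct contrasts 2-fold gave 2 higher and 1 lower in radiation against Sugar (6 and 3), 4 and 4 in peroxide against Sugar (8 and 8), 1 lower in peroxide against radiation (2), and 1 higher and 2 lower in Old against hyperoxia (2 and 7). Genes lower in Old flies numbered 1 with the 25th percentile, with 2 groups fitted, with array weights and without the 2 arrays of high actin ratio. With 2 groups fitted, 3 were lower in hyperoxia, 1 in heat stress and 1 in peroxide against radiation, and 1 was higher in Old against hyperoxia. Median scaling gave 4 genes higher in Old against hyperoxia and 0 lower in Sugar flies. Genes higher in Sugar flies, 0 in the report, numbered 1 with the 1st percentile and 2 with array weights. With replicate number as a block, 117 calls were kept; GstT3 in Sugar flies (-0.63), leaving 0 lower there, and GstD11 in heat stress (-1.12) were lost. The replicate numbers do not pair the arrays.

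Leaving out each array in turn gave 1 to 2 genes lower in Old flies, 8 to 11 lower and 5 to 8 higher in peroxide, 0 to 2 higher and 0 to 1 lower in Sugar flies, 1 to 3 higher in Old against hyperoxia and 2 to 3 lower in peroxide against radiation. The causes were not tested.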
